A study of Mus musculus with 288 samples.

Results

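The 8 genes described here are the immunoglobulin and plasma cell genes of a single-cell RNA-sequencing series from mouse gut: *Jchain*, *Igkc*, *Igha*, *Ighm*, *Iglc2*, *Iglc3*, *Mzb1* and *Cd74*. They are 8 of the 46078 mouse genes in the count table, and were listed by name, not by a measured value. They were read in every cell with at least 20000 reads on mouse genes and at most 20% mitochondrial reads, which left 250 of 288 cells. Of these, 19 had *Jchain* at 100 CPM (reads per 1000000 gene reads of a cell) or more and are called *Jchain*-high, and 156 had *Cck* at 10000 CPM or more and are called *Cck*-rich. No cell was both.

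The cells came from the upper small intestine of 3 male GLU-Venus mice aged 20 to 21 weeks, in which a yellow fluorescent protein is driven by the proglucagon promoter. They were sorted singly into plates, and each received a Smart-seq2 library, which has full-length cDNA, no molecular identifiers and no strand information. The labels give the cells as 3 pools of 96 (SLX-9703, which was sequenced deeply, and the shallower SLX-11175 and SLX-11179) and call all of them L-cells, naming neither the mouse nor the fluorescence of a cell. By the study's account of its results, non-fluorescent control cells were collected beside the fluorescent ones from the first pair of mice. The 96 cells it describes from the third mouse were fluorescent. After the filters 88 cells of SLX-9703 remained, with a median of 1975710 reads on genes, 75 of SLX-11175 with 52571 and 87 of SLX-11179 with 70726. Each pool was taken as 1 mouse and 1 replicate, so that the comparisons rest on 2 or 3 pools and not on cells.

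Plasma cells are the antibody-secreting end stage of B cells, and in the gut lamina propria most of them make IgA. An antibody joins heavy chains to light chains, and each B cell joins 1 variable segment for each kind of chain, drawn from a large germline set, to further segments. Unrelated clones can use the same variable segment, and the join that marks a clone is not seen in counts per gene. The joining chain couples IgA into the dimers that epithelial cells carry into the lumen. These messages are among the most abundant of a plasma cell, so that their reads can also be looked for in cells of other types.

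The members are located here in mm10, the build of the counts, with coordinates from GENCODE M21. *Jchain* (the joining chain) is at chr5:88519809-88527891 on the minus strand. *Igkc* (the kappa light chain constant region, chr6:70726435-70726966, plus strand) overlaps *Gm30211* on the same strand. *Igha* (the IgA heavy chain constant region, chr12:113254830-113260236) and *Ighm* (that of IgM, chr12:113418558-113422730) are both on the minus strand of the heavy chain locus. *Iglc2* (chr16:19198396-19200351, minus strand, overlapping *Iglj2*) and *Iglc3* (chr16:19065230-19065681, minus strand, overlapping *2010309G21Rik* on the other strand) encode lambda light chain constant regions. *Mzb1*, a chaperone of antibody assembly in the endoplasmic reticulum, overlaps *SPATA24*, and *Cd74*, the invariant chain that escorts MHC class II molecules, overlaps *Mir5107*. Reads in these overlaps cannot be assigned by strand in this kind of library.

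Several of these genes have near copies, which sets how far their reads can be told apart. The first 300 shared bases of *Iglc2* and *Iglc3* (GENCODE M21, written 5′ to 3′, minus strand) are shown because they differ at only 11 positions, given in capitals, so that the division of lambda reads between both genes is uncertain.
Iglc2: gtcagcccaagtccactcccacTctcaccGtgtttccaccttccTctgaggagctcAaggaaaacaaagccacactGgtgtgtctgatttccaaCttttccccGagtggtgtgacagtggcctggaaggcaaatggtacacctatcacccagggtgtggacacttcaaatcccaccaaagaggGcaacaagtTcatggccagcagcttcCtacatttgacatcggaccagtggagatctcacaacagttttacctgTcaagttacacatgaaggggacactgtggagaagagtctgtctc
Iglc3: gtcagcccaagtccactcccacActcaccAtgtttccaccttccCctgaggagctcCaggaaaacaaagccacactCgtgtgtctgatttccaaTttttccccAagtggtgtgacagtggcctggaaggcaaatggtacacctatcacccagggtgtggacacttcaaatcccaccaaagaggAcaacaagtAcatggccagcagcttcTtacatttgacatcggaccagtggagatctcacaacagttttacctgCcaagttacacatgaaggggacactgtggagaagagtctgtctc

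The last 90 bases of *Igkv6-15* (chr6:70406469-70406992, minus strand) and *Igkv6-23* (chr6:70260409-70260955, minus strand) follow, since these kappa variable segments led in cells of different pools. Their differences, 3 of 90 bases, are in capitals.
Igkv6-15: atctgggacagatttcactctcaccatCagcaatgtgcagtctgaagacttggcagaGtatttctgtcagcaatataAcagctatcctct
Igkv6-23: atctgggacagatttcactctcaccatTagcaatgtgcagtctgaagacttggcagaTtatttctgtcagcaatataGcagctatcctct

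The segments *Ighv9-3* (chr12:114140692-114141122, minus strand) and *Igkv5-43* (chr6:69823355-69823943, minus strand) are shown because they led together in 2 cells. Their last 90 bases are given with capitals for the codon of the conserved cysteine at which the hypervariable join to the next segment begins, found as the last TGT or TGC after a tyrosine or phenylalanine codon.
Ighv9-3: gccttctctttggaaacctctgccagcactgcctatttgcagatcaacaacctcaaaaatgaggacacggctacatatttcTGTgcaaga
Igkv5-43: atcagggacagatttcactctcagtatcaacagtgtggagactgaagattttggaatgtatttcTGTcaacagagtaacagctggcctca

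*Jchain* divided the *Jchain*-high cells into separate ranges. In 7 cells, 4 from SLX-11175 and 3 from SLX-11179, *Jchain* stood at 37019, 45409, 47203, 49306, 49713, 55860 and 59892 CPM. In the other 12 it ranged from 102 to 1436 CPM, and no cell lay in between, a gap of 25.8-fold. At the 100 CPM limit the nearest cells on either side stood at 102 and 90.9 CPM in pool SLX-11175 and at 179 and 99.7 CPM in pool SLX-11179. In pool SLX-9703 they stood at 115 and 2.35 CPM, far apart. At the *Cck* limit the nearest cells stood at 10906 and 5424, 12323 and 5010, and 18003 and 9565 CPM in the same order of pools. These values chose the cells and are a description.

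**Figure D1:**
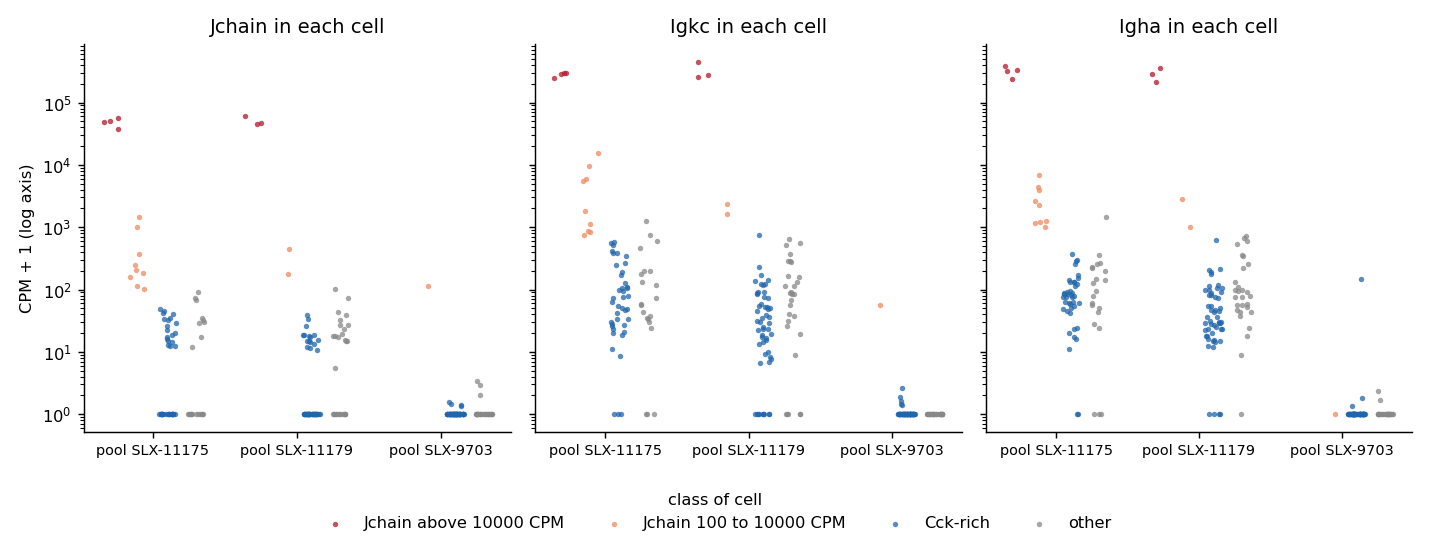
Level of *Jchain*, *Igkc* and *Igha* in each of the 250 cells, as CPM plus 1 on a log axis, by pool (horizontal axis) and class of cell (colour). The 7 cells above 10000 CPM *Jchain* stand apart for all 3 genes, and for *Igkc* and *Igha* most *Cck*-rich and other cells of both shallow pools lie above those of pool SLX-9703.

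The 7 cells above the gap carried 58.7 to 71.4% of all their gene reads on the 6 chain genes of the list (median 66.6%). *Igkc* stood at 245615, 253876, 276944, 284761, 298018, 300436 and 452922 CPM. *Igha* stood at 212987, 239425, 285926, 321953, 331242, 357591 and 383278 CPM. For both genes the 7 cells do not overlap with the remaining ones, whose highest values were 15377 CPM of *Igkc* and 6798 CPM of *Igha*. *Ighm* had 0 to 8.27 CPM in the same cells, or 10 reads in all.

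The lambda genes and the non-antibody members were present in all 7 cells at lower read numbers. *Iglc2* ranged from 73.1 to 2550 CPM and *Iglc3* from 24.4 to 247 CPM, and the highest *Iglc2* level was in cell 82 of pool SLX-11179. *Mzb1* (chr18:35647267-35649367, minus strand) had 28.9 to 939 CPM, again highest in that cell, and 786 of the 788 reads it had in all passing cells fell in these 7. *Cd74* (chr18:60803848-60812652, plus strand) had 344 to 2291 CPM. Reads on *Cd74* were not particular to these cells, which held 15.9% of them over all pools. They held 99.8% of *Jchain*, 99.7% of *Igkc* and 99.8% of *Igha* reads. Of the *Cd74* reads 80.6% were in the deeply sequenced pool SLX-9703, which had none of these cells, so that the 15.9% depends on its depth.

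The plasma cell label was checked against marker genes. All 10 plasma cell markers, a list that itself holds *Jchain*, *Igha* and *Mzb1*, had reads in the 7 cells, among them *Xbp1* (247 to 743 CPM), the transcription factor of the secretory programme, *Tnfrsf17* (22.1 to 49.4 CPM), the survival receptor BCMA, and *Cd79a* (31.9 to 159 CPM), a signalling chain of the B cell receptor. All 6 leukocyte markers had reads, and summed to 39.3 to 775 CPM. Of 10 B cell markers 5 had reads (79.7 to 236 CPM summed), and *Ms4a1*, *Pax5*, *Cr2*, *Fcer2a* and *Blk* had none in any of these cells. Of 10 T cell markers 3 had reads (0 to 44.3 CPM summed), with none on *Cd3d*, *Cd3e* or *Cd3g*. The L-cell label was not borne out there: *Chgb*, *Tph1* and *Neurod1* had no read, the summed endocrine markers came to 16.5 to 27.5 CPM, and *Gcg* to at most 4.91 CPM, where the *Cck*-rich sums held 258117 to 315257 CPM of endocrine markers. These cells were also the deepest 4 that passed in pool SLX-11175 and the deepest 3 in SLX-11179, at 363707 to 779919 reads, with 0.274 and 0.560% of reads mitochondrial in the median of each pool.

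The 11 *Jchain*-high cells of the shallow pools below the gap had lower and sparser values. *Jchain* rested on 4 to 75 reads per cell, and the cells had 20121 to 83323 reads. *Igkc* had a median of 1810 CPM (740 to 15377) and *Igha* a median of 2297 CPM (990 to 6798). *Mzb1* had no read in any of them, nor did *Irf4* or any of the 6 leukocyte markers (*Ptprc*, *Coro1a*, *Laptm5*, *Cd52*, *Cd53*, *Rac2*), which all had reads in the cells above the gap. *Xbp1* had reads in 4 of the 11, up to 647 CPM in cell 82 of pool SLX-11175, and *Cd79a* had 1 read in all. Of the 10 plasma cell markers checked, all but *Mzb1* and *Irf4* had reads in at least 1 of these cells. *Prdm1* had a single read in each of 6 of the 11, up to 26.97 CPM, and it had reads in 4 of the 7 cells above the gap. Cell 82 of pool SLX-11175 alone had reads of *Derl3* (297 CPM, 11 reads) and *Tnfrsf17* (53.9 CPM, 2 reads). *Cd79b* had reads in 2 cells, up to 229.8 CPM, and *Sdc1* in 1, at 48.01 CPM.

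Markers of other types were spread unevenly over these 11 cells. Enterocyte markers summed to between 0 and 25374 CPM, with a median of 50.9 CPM. Cell 85 of pool SLX-11175 had *Fabp1*, a fatty acid-binding protein of enterocytes, at 4223 CPM and *Pigr*, the epithelial receptor that takes up IgA with its joining chain, at 2807 CPM. Cell 89 of the same pool had *Epcam*, an epithelial adhesion molecule, at 2892 CPM with *Pigr* at 1644 CPM and *Cd74* at 1296 CPM. The endocrine markers came to 104 to 596 CPM. What part other cells or their RNA had in these libraries was not tested.

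**Figure D2:**
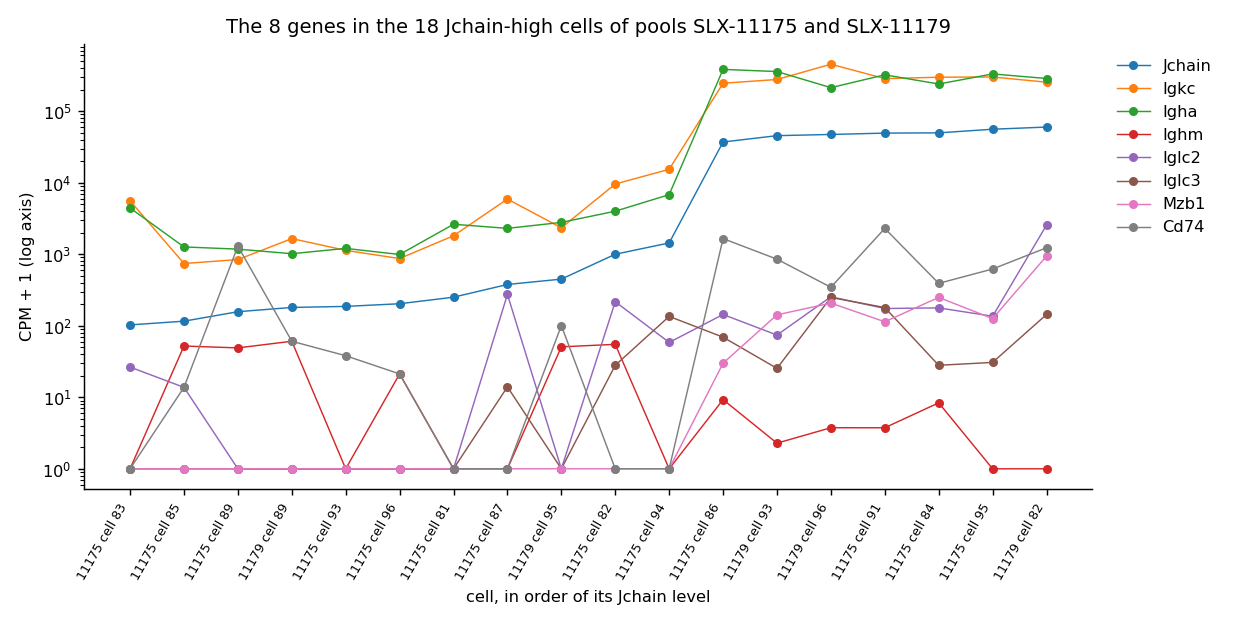
The 8 genes (colours) in the 18 *Jchain*-high cells of the shallow pools, as CPM plus 1 on a log axis, with cells ordered by *Jchain*. *Igkc* and *Igha* follow *Jchain* across the gap from 1436 to 37019 CPM, *Mzb1* has reads only to the right of it, and *Ighm* does not rise there.

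In pool SLX-9703 a single cell, number 23, was *Jchain*-high. It had *Jchain* at 115 CPM (79 reads), *Igkc* at 55.3 CPM, *Ighm* at 53.8 CPM and no *Igha*, *Mzb1* or *Cd74* read. Its T cell markers summed to 601 CPM and its leukocyte markers to 317 CPM. No cell of this pool reached the levels seen above the gap in the others.

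Counts were summed per pool for the *Jchain*-high and *Jchain*-low cells to compare both classes within a pool. Pools SLX-11175 and SLX-11179 gave sums of at least 3 cells (13 against 62 and 5 against 82). Of the *Jchain*-high sums, 77.8 and 95.7% of the reads came from the cells above the gap. *Igkc* was 1707-fold higher by CPM in the *Jchain*-high sum of pool SLX-11175 (95% counting interval 1559 to 1872) and 4380-fold higher in pool SLX-11179 (4000 to 4807). *Igha* was 2525-fold (2278 to 2806) and 3797-fold (3485 to 4144) higher. *Iglc2* was 61.6-fold (30.9 to 144) and 357-fold (212 to 655) higher. In pool SLX-11179 cell 82 alone held 1037 of the 1186 *Iglc2* reads of the *Jchain*-high sum, so that the second ratio rests largely on 1 cell.

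*Iglc3* and *Mzb1* had 0 reads in the *Jchain*-low sum of pool SLX-11175, so that *Iglc3* was at least 71.4-fold and *Mzb1* at least 118-fold higher against a floor of 3 reads in that sum. In pool SLX-11179 each had 1 read there, with ratios of 704 (125 to 27975) and 2391 (427 to 94588). Single cells carried much of these values. In the *Jchain*-high sum of pool SLX-11179, 1 cell held 90 of the 167 *Iglc3* reads and cell 82 held 382 of the 567 *Mzb1* reads. In that of pool SLX-11175, single cells held 65 of the 133 *Iglc3* and 101 of the 219 *Mzb1* reads. *Cd74* was 275-fold higher (160 to 517) in pool SLX-11175 and 9.06-fold higher (8.22 to 9.999) in pool SLX-11179, where single *Jchain*-low cells also held it. Cell 62 alone had 294 of the 602 *Cd74* reads of the *Jchain*-low sum in pool SLX-11179, and cell 70 had 7 of the 13 in pool SLX-11175. Both ratios thus depend on 1 *Jchain*-low cell. *Ighm* went the other way by CPM, at 0.547-fold (0.307 to 0.934) and 0.216-fold (0.0778 to 0.485). The intervals cover counting error only, since reads without molecular identifiers are not independent molecules.

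In the fit across all genes (edgeR quasi-likelihood test with pool as a block, Benjamini-Hochberg adjustment), 147 of 9746 genes (1.51%) were higher and 148 (1.52%) lower in the *Jchain*-high sums. The immunoglobulin reads take up much of these sums, and the median log2 change of all genes was -1.09. Of the 147 called higher, 84 had at most 3 reads in each *Jchain*-low sum and passed the filter on low counts through the *Jchain*-high sums. That number is a minimum, since *Iglc2*, with 8 and 14 reads there, passed in the same way. The same holds for the other counts at this cut below. No such count was made for the 148 called lower. The log2 change of *Igkc* was 13.48 (SE 0.86, adjusted p = 5.51e-51). For *Igha* it was 13.66 (SE 0.86, adjusted p = 4.69e-52). *Cd74* rose by 7.63 (SE 1.00, adjusted p = 6.13e-12), with 5.20 without pool SLX-11175 and 9.61 without pool SLX-11179. *Iglc2*, *Iglc3* and *Mzb1* had at most 14 reads in each *Jchain*-low sum and passed the filter through the *Jchain*-high sums, so that their calls are no evidence and their ratios and bounds above stand as the description. *Ighm* had a fitted change of 0.54 (SE 1.87, adjusted p = 0.979), opposite in sign to its CPM ratios in both pools, so that these data give it no direction.

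These calls depend on the pool block. With 4 sums, the fit without the replicate block called 0 genes by edgeR, while 2673 had an unadjusted p under 0.05, and the adjusted p of *Igkc*, *Igha* and *Cd74* was then 0.102, 0.0976 and 0.110. Their log2 changes in that fit were 13.45, 13.67 and 6.38. DESeq2, with the block, called 347. By edgeR *Cd74* was also not called with a *Jchain* limit of 10 CPM (log2 change 4.61, adjusted p = 0.153) or when sums of 1 cell were admitted (5.12, adjusted p = 0.360). With sums of 1 cell *Igha* was not called either (11.99, adjusted p = 0.122).

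The lists of related genes moved unevenly in the same fit. Of 20 plasma cell factors and surface genes, 18 were tested, 15 were higher and none was lower (median log2 change 8.06). Of the 15, 7 had at most 3 reads in each *Jchain*-low sum (*Cd79a*, *Cd79b*, *Derl3*, *Irf4*, *Slamf7*, *Tnfrsf13b* and *Tnfrsf17*). They passed the filter on low counts through the *Jchain*-high sums, so that their calls are no evidence of their own. The count of 15 and the median include them and are a description. *Txndc5*, a disulphide isomerase of the endoplasmic reticulum, changed by 4.35 (adjusted p = 1.53e-05) and *Xbp1* by 3.24 (adjusted p = 0.00349). *Edem1*, which helps to clear misfolded glycoproteins, changed by 5.50 (adjusted p = 2.45e-06). These are fitted log2 changes, on TMM-scaled library sizes. By CPM of all gene reads in pools SLX-11175 and SLX-11179, the ratios of the same sums were smaller, at 2.25 and 2.26 for *Xbp1*, 3.12 and 7.66 for *Txndc5* and 9.86 and 11.9 for *Edem1*. *Derl3*, of the same degradation route, had 0 reads in both *Jchain*-low sums and was at least 77.9-fold higher in pool SLX-11175 and at least 437-fold higher in pool SLX-11179, against a floor of 3 reads in the sum. *Ell2*, *Cd38* and *Prdm1* did not pass. Of 9 further antibody genes, *Iglc1* and *Iglv1* alone were tested. They had 0 and 1 reads in each *Jchain*-low sum, so they passed the filter through the *Jchain*-high sums and their calls are no evidence of their own. Across all immunoglobulin segment and constant genes, 53 of the 60 tested were higher by edgeR. Of these 53, 37 had at most 3 reads in each *Jchain*-low sum and passed the filter through the *Jchain*-high sums, so that the count is a description.

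Of 14 genes of general secretion tested, *Sec11c*, a subunit of the signal peptidase, rose by 4.02 (adjusted p = 0.00216) and *Pdia4* by 3.26 (adjusted p = 0.0226), and the other 12 did not pass. The median of this list was 1.77, beside -1.09 over all genes, and the list as a whole was not tested. These are fitted changes on TMM-scaled library sizes. By CPM most of the list was lower in the *Jchain*-high sum of pool SLX-11175 and higher in that of pool SLX-11179. By CPM *Sec11c* stood at 140 against 57.03 in the *Jchain*-low sum of SLX-11175 and at 223 against 36.3 in SLX-11179. *Pdia4* stood at 99.4 against 55.4 and at 199.9 against 68.9 CPM. Of 5 genes of MHC class II and its loading that were tested, *Cd74* alone was called, and *H2-Ab1* had a change of 4.17 with adjusted p = 0.053. *Pigr*, *Ccl28* and *Ccl25*, the tested genes of epithelial IgA handling, did not pass. Of 12 endocrine markers 11 were lower. Of these, *Chga* and *Neurod1* had no read in the *Jchain*-high sum of pool SLX-11175, and *Pyy* had none in that of pool SLX-11179. How many of the 11 passed the filter through the *Jchain*-low sums was not counted, so that the number is a description. Of 5 leukocyte markers tested 4 were higher, but 3 of them (*Cd52*, *Cd53* and *Laptm5*) had at most 3 reads in each *Jchain*-low sum and so passed the filter on low counts through the *Jchain*-high sums, which makes their calls no evidence of their own. By fitted fold, the genes at the ends outside the lists were *Klhl6*, *Ighv1-26*, *Igkj2*, *Ighv1-15* and *Ighv1-34* upwards, and *Rgs2*, *Aplp1*, *Scgn*, *Adgrg4* and *Pcsk1* downwards. Their folds rest on a class at or near 0 reads in at least 1 pool, so that neither their size nor their order is given. The downward genes had 0 reads in both *Jchain*-high sums, and *Rgs2* was at least 281-fold lower in pool SLX-11175 and at least 270-fold lower in SLX-11179.

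The genes whose pattern over cells was most like *Jchain* were sought by the Pearson correlation of log2(CPM + 1) over the 75 and 87 cells of the shallow pools, among 14984 genes with a read in at least 5 cells. As a description, the mean r of both pools was 0.773 for *Igkc*, 0.760 for *Igha*, 0.701 for *Mzb1*, 0.694 for *Iglc3*, 0.619 for *Iglc2*, 0.507 for *Cd74* and -0.0617 for *Ighm*, where the median gene had -0.0636. Of the genes outside the list the nearest were *Lax1* (0.730), *Cd79a* (0.717), *Tnfrsf17* (0.713), *Iglv1* (0.704), *Derl3* (0.695), *St6gal1* (0.692), *Tnfrsf13b* (0.677), *Srgn* (0.673), *Iglv2* (0.666) and *Lgals1* (0.665). The points share library and depth, and most of these genes had reads in 8 or 9 cells only, so that the cells above the gap set these values.

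The variable segments were read to see which segments led in each cell. The table holds 348 such genes, and 19 cells had at least 20 reads on them, 17 of which were *Jchain*-high. The 7 cells above the gap had 31855 to 139146 such reads each and 99.8% of all of them. In cell 84 of pool SLX-11175 the leading pair was *Ighv1-5* (91.6% of heavy segment reads) with *Igkv4-91* (99.2% of light segment reads). In cell 91 it was *Ighv1-22* (68.5%) with *Igkv6-15* (89.7%). Cells 86 and 95 of this pool shared the pair *Ighv9-3* (85.9 and 93.5%) with *Igkv5-43* (77.7 and 92.3%).

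Each cell above the gap in pool SLX-11179 had a pair of its own. Cell 82 was led by *Ighv1-76* (93.4%) with *Igkv1-117* (78.1%), and cell 93 by *Ighv1-15* (87.9%) with *Igkv6-23* (95.4%). Cell 96 was led by *Igkv12-44* (66.5%), while *Ighv1-26* led its heavy segments with 796 of few reads (52.5%). Of the 7 cells, none shared a leading segment with a cell of the other pool.

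Second segments differed in how near they were to the first. *Igkv5-45* took 19.1 and 6.05% of the light segment reads of cells 86 and 95, and its transcript is 98.4% identical to that of *Igkv5-43* over the aligned bases, with 0 differences in the last 90. *Ighv9-1*, the second heavy segment of cell 86 (9.89%), is 93.2% identical to *Ighv9-3*. *Igkv1-110*, second in cell 82 of pool SLX-11179 (18.5%), is 97.5% identical to *Igkv1-117*. Others were less alike: *Ighv1-67*, second in cell 93 of pool SLX-11179 (5.41% of heavy reads), is 80.1% identical to *Ighv1-15*, and *Ighv1-12*, second in cell 82 of that pool (2.89%), is 87.2% identical to *Ighv1-76*. *Igkv1-135*, second in cell 84 (0.262% of light reads), is 66.8% identical to *Igkv4-91*. How the counting divided reads between such copies is not given in the sources used here.

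The few segment reads in other cells fell largely on the leading segments of their own pool. In pool SLX-11175 the 9 cells at 100 to 10000 CPM *Jchain* had 420 segment reads, of which 67.9% (exact 95% interval 63.2 to 72.3%) were on the segments led by the cells above the gap in that pool and 1.19% (0.388 to 2.76%) on those led in pool SLX-11179. The 41 *Cck*-rich cells had 104 reads, 82.7% (74.03 to 89.4%) on their own pool's leading segments and 1.92% (0.234 to 6.77%) on the other's. In pool SLX-11179 the 53 *Cck*-rich cells had 106 reads, 73.6% (64.1 to 81.7%) against 0.943% (0.0239 to 5.14%). The 2 cells at 100 to 10000 CPM there had 67 reads, 83.6% (72.5 to 91.5%) against 1.49% (0.0378 to 8.04%). The cells above the gap themselves had 89.9 and 86.9% on their own pool's set, which the choice of the segments from these cells largely fixes. They had under 1% on the other's. Nearly all of that was on *Igkv6-23* in cell 91 and on *Igkv6-15* in cell 93, the near copies printed above.

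Several libraries held more than a single leading pair. Cell 81 of pool SLX-11175 had its 35 segment reads on *Igkv4-91* (19), *Igkv5-43* (8), *Ighv9-3* (7) and *Ighv1-5* (1), which are the leading segments of cells 84, 86 and 95. The light segments of cell 94 were led by a segment that led in no cell above the gap, *Igkv9-120* (39 reads). So were those of cell 83, by *Igkv12-46* (14 reads). Their heavy segments were led by *Ighv1-22* (4 of 10 reads) and *Ighv1-5* (6 of 15 reads), which led in cells 91 and 84. In pool SLX-9703 all 88 cells together had 208 segment reads, of which 99 were on *Ighv1-33* in cell 79.

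**Figure D3:**
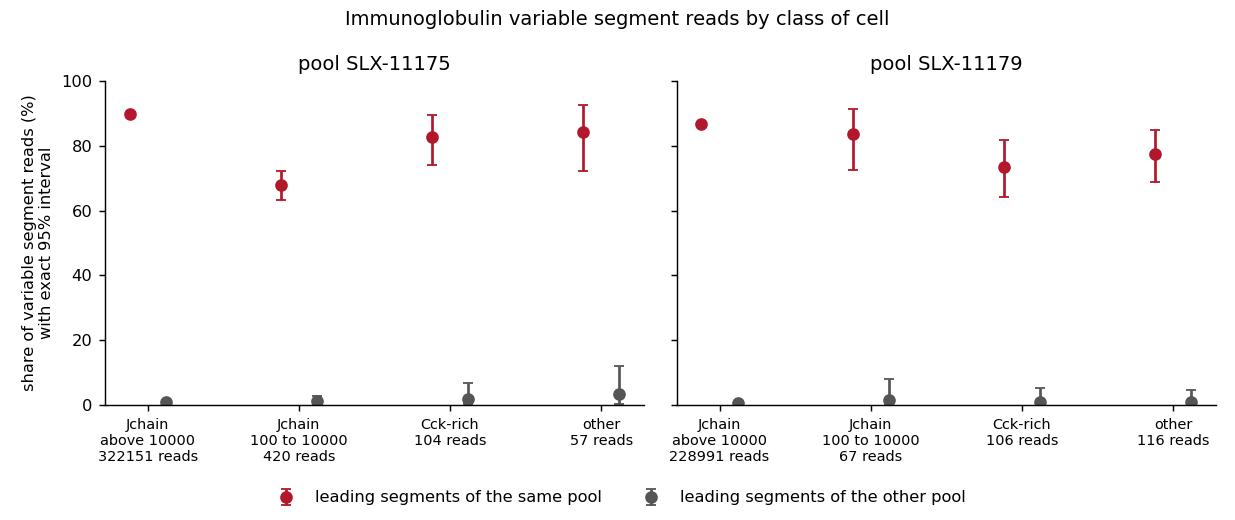
Share of variable segment reads (vertical axis, %) that fell on segments leading in the cells above 10000 CPM *Jchain* of the same pool (red) or the other shallow pool (grey), by class of cell, with exact 95% intervals for counting error. The segments were chosen by the reads of the cells above 10000 CPM, which largely fixes the same-pool share of that class. In each other class the same pool's segments hold 67.9% or more and the other pool's 3.51% or less.

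The levels in hormone-rich cells were read within pool. In the 41 *Cck*-rich cells of pool SLX-11175 *Jchain* had 24 reads, 9.25 CPM of the sum (95% Poisson interval 5.93 to 13.8). In the 53 of pool SLX-11179 it had 25 reads, 5.48 CPM (3.54 to 8.08). In the 62 of pool SLX-9703 it had 4 reads, 0.0293 CPM (0.00799 to 0.0751). In single *Cck*-rich cells its highest levels were 47.6, 37.8 and 0.564 CPM.

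*Igkc* and *Igha* followed the same order of pools. *Igkc* stood at 113 CPM (100.02 to 126), 45.8 CPM (39.8 to 52.4) and 0.0660 CPM (0.0302 to 0.125) in the same order of pools. *Igha* stood at 81.3 CPM (70.7 to 93.1), 50.4 CPM (44.1 to 57.3) and 1.15 CPM (0.978 to 1.35), and 154 of its 157 reads in pool SLX-9703 were in 1 cell, without which the level was 0.0222 CPM (0.00457 to 0.0648). *Igkc* had a read in 38 of 41, 44 of 53 and 5 of 62 *Cck*-rich cells, and *Igha* in 39, 49 and 3. With each cell thinned to 20000 reads the shares for *Igkc* were 78.05% (62.4 to 89.4%), 50.9% (36.8 to 64.9%) and 0%, where 0 of 62 cells allows a share with a read of up to 4.84% by the limit of 3 counts (5.78% by the exact interval). The intervals of the shallow and deep pools do not overlap for *Jchain*, *Igkc*, *Igha* or *Ighm* by CPM of the sum. Pool, depth and the cells above the gap cannot be told apart in this difference, since the deep pool had none of them.

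*Ighm* behaved differently from the other chain genes. It stood at 16.6 CPM (11.996 to 22.3) and 15.8 CPM (12.3 to 19.9) in the *Cck*-rich cells of the shallow pools, with reads in 27 of 41 and 37 of 53 cells and at most 4 in a cell, and at 0.110 CPM (0.0615 to 0.181) in pool SLX-9703. The *Jchain*-high sums held less, 8.39 CPM (5.05 to 13.1) and 3.70 CPM (1.36 to 8.06). Its high values were in cells 73, 79 and 72 of pool SLX-9703, at 2126, 1307 and 180 CPM. These cells had *Ptprc*, the leukocyte antigen CD45, at 644, 1150 and 1019 CPM and *Cd3e*, a T cell receptor signalling chain, at 237, 323 and 128 CPM. They had no read on *Igkc* or *Cd79a*, while cell 73 had *Cd79b* at 183 CPM. They held 5941, 2909 and 169 of the 9272 *Ighm* reads.

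*Iglc2* had 6, 10 and 0 reads in the *Cck*-rich cells of the 3 pools, *Iglc3* 0, 1 and 0, and *Mzb1* 0, 1 and 1. For *Mzb1*, 0 of 41 cells in pool SLX-11175 allows a share with a read of up to 7.32% by the limit of 3 counts (8.60% by the exact interval), which is no limit on cells that express it. *Cd74* stood at 4.24 CPM (2.12 to 7.59), 39.6 CPM (34.1 to 45.9) and 71.96 CPM (70.5 to 73.4), with reads in 2 of 41, 17 of 53 and 41 of 62 cells. Single cells set much of these levels. Without the cell with the most *Cd74* reads in each pool, a step added after seeing the data, they came to 1.60 CPM (0.435 to 4.08), 27.6 CPM (22.9 to 32.9) and 31.1 CPM (30.2 to 32.1), and the last 2 intervals overlap. The cell left out of pool SLX-9703 was number 78, with 5707 of 9819 reads, which had 1306 CPM *Cd74* beside 100612 CPM *Cck* and 78843 CPM *Gcg*. The highest *Cd74* level of all cells was 2682 CPM in cell 62 of pool SLX-11179, a cell with 1131 CPM *Chgb*, a granin of endocrine secretory granules, and no *Cd79a* read.

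**Figure D4:**
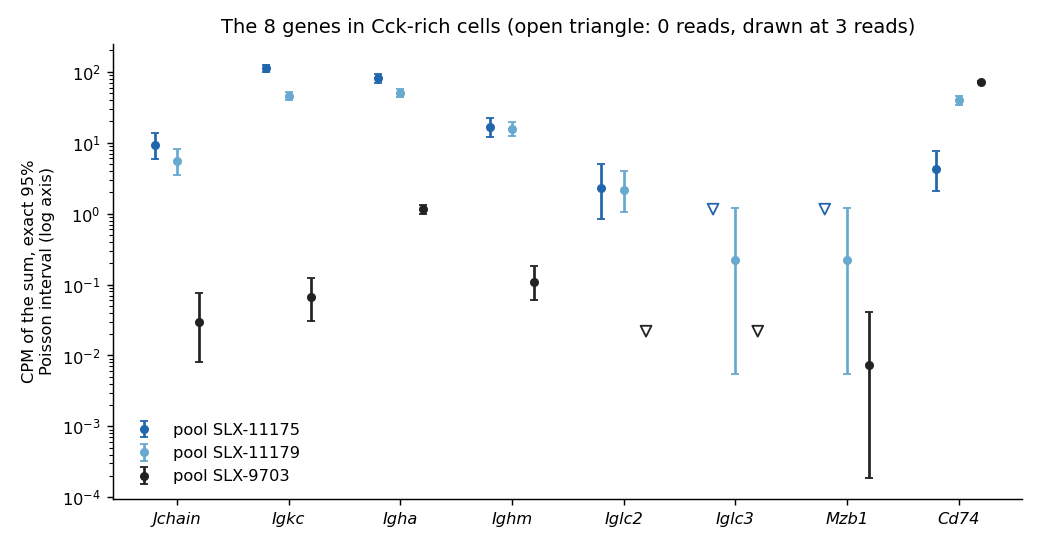
Level of the 8 genes in the sum of *Cck*-rich cells of each pool, as CPM on a log axis with exact 95% Poisson intervals, and open triangles at 3 reads where there were 0. *Jchain*, *Igkc*, *Igha* and *Ighm* lie lower in pool SLX-9703 than in the other pools. The *Cd74* level of pool SLX-9703 falls from 71.96 to 31.1 CPM without a single cell.

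*Cck*-rich cells were then compared with all *Cck*-poor cells over 6 sums (edgeR, pool as a block). Of 11402 genes tested, 70 (0.614%) were higher and 104 (0.912%) lower in the *Cck*-rich sums. Of the 5 members tested, *Jchain* was called, with a log2 change of -11.54 (SE 1.46, adjusted p = 0.0112). *Igkc* had -10.38 (SE 2.16, adjusted p = 0.0727), *Igha* -10.51 (SE 4.57, adjusted p = 0.368), *Cd74* -4.45 (SE 1.20, adjusted p = 0.151) and *Ighm* -2.25 (SE 1.99, adjusted p = 0.675). *Iglc2*, *Iglc3* and *Mzb1* did not pass the filter on low counts. Without pool SLX-9703 the adjusted p of *Igkc* and *Igha* was 0.000211 and that of *Cd74* was 0.0458, and without pool SLX-11175 that of *Jchain* was 0.112. *Jchain* was also not called with a minimum of 750000 reads for cells of pool SLX-9703 (adjusted p = 0.110), a mitochondrial limit of 10% (0.168) or no replicate block (0.144). Its log2 changes in these 3 settings were -11.28, -11.42 and -12.69, and -10.48 without pool SLX-11175. *Igkc*, *Igha* and *Cd74* were called by DESeq2 (adjusted p = 4.68e-21, 1.27e-05 and 2.80e-05), by edgeR with no filter on low counts (2.78e-172, 1.55e-93 and 6.35e-21) and by edgeR after thinning (1.42e-06, 6.59e-06 and 0.000177). By edgeR *Ighm* was called with no filter on low counts (-2.08, adjusted p = 0.0172), and *Igha* with a *Cck* limit of 50000 CPM (-11.22, adjusted p = 0.00308).

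Most of these calls were not made without the *Jchain*-high cells. Leaving them out took the number of genes called from 174 to 6, and *Igkc* then changed by -0.78 (adjusted p = 0.781). *Jchain* then changed by -1.31, a value that the choice of the cells left out by their *Jchain* level fixes in part. By CPM, *Igkc* in the remaining *Cck*-poor cells was 1.501-fold (1.24 to 1.82) that of *Cck*-rich cells in pool SLX-11175 and 2.48-fold (2.05 to 2.99) in pool SLX-11179. *Igha* was at 1.77-fold (1.43 to 2.20) and 2.58-fold (2.17 to 3.08). In pool SLX-9703 *Igha* was at 0.0790-fold (0.0161 to 0.235), from 3 reads against 157, of which 154 were in 1 *Cck*-rich cell. Without that cell the *Cck*-rich level was 0.0222 CPM (0.00457 to 0.0648), beside 0.0910 CPM (0.0188 to 0.266) in the *Cck*-poor cells, with overlapping intervals. *Igkc* had 0 reads against 9, where the 0 reads allow up to 0.112 CPM and the *Cck*-rich level was 0.0660 CPM. This pool thus gives neither gene a direction. Subsets of the remaining *Cck*-poor cells were summed after seeing the data. In pool SLX-11175, cell 90 alone had 64 of the 152 *Igha* reads and 56 of the 178 *Igkc* reads, and without it, which leaves the cells numbered 1 to 80, the ratios were 1.07 for *Igkc* (0.862 to 1.33) and 1.07 for *Igha* (0.826 to 1.38). In pool SLX-11179 the cells numbered 1 to 80 gave 1.498 for *Igkc* (1.19 to 1.88) and 1.37 for *Igha* (1.09 to 1.71).

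With the *Jchain*-high cells in the fit, 13 of the plasma cell factors were tested and 4 were lower in the *Cck*-rich sums (list median -2.56, beside 0.03 over all genes). *Derl3* had no read in the *Cck*-rich sum of any pool, and *Tnfrsf13b* and *Cd79b* had at most 2 in each, so these 3 passed the filter through the *Cck*-poor sums alone and their calls are no evidence of their own. They were not tested once the *Jchain*-high cells were left out. *Edem1* had reads in all sums and changed by -3.05 (adjusted p = 0.036), and by -0.84 (adjusted p = 0.729) without those cells. Of the 5 leukocyte markers tested 4 were also lower (*Cd52*, *Laptm5*, *Coro1a* and *Cd53*, list median -7.64). They had at most 9 reads in each *Cck*-rich sum of the shallow pools and were not tested without the *Jchain*-high cells. They too passed the filter through the *Cck*-poor sums, so that their calls are no evidence of their own. In pool SLX-9703, which has no cell above the gap, the *Cck*-poor sum had 512 *Cd79b*, 246 *Tnfrsf13b* and 115 *Derl3* reads beside 5461 reads of *Laptm5* and 16020 of *Coro1a*. The part of leukocytes in the plasma cell factors was not tested. In the same fit with the *Jchain*-high cells, *Pigr* (-1.47, adjusted p = 0.0499) and *Ccl25* (-4.79, adjusted p = 0.0189), an epithelial chemokine that draws IgA cells to the small bowel, were lower, and *Ccl28* did not pass. Without them *Pigr* was at -0.79 (adjusted p = 0.756) and *Ccl25* at -3.92 (adjusted p = 0.522). Of 7 enterocyte markers tested 3 were lower with the *Jchain*-high cells (*Apoa1*, *Fabp1* and *Alpi*, list median -1.94) and none of the 3 passed without them (adjusted p from 0.181 to 0.418), though their log2 changes stayed negative, going from -2.92 to -2.72 for *Apoa1*, from -3.59 to -2.87 for *Fabp1* and from -5.12 to -4.85 for *Alpi*. What part these markers had in the epithelial genes was not tested.

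Ratios of reads between members were compared across classes of the shallow pools. In the cells above the gap there were 4.24 to 9.60 *Igkc* reads and 4.51 to 10.4 *Igha* reads per *Jchain* read. The sum of *Cck*-rich cells gave 12.2 *Igkc* reads per *Jchain* read (8.02 to 19.3) in pool SLX-11175 and 8.36 (5.51 to 13.2) in pool SLX-11179. *Igha* gave 8.79 (5.75 to 14.03) and 9.20 (6.08 to 14.5). In the sums of cells above the gap *Igkc* gave 5.88 and 6.29 and *Igha* 6.73 and 6.14, so that the intervals of *Cck*-rich cells hold these values except for *Igkc* in pool SLX-11175. *Iglc2* did not keep its ratio, with 0.00323 and 0.0154 reads per *Jchain* read above the gap and 0.250 (0.0836 to 0.628) and 0.400 (0.171 to 0.862) in *Cck*-rich cells.

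The cell numbers in the sample titles moved with these levels. All 18 *Jchain*-high cells of the shallow pools were numbered 81 to 96, while none of the 94 *Cck*-rich cells of those pools was. Of the cells that passed, 14 of pool SLX-11175 and 11 of pool SLX-11179 carried these numbers. In pool SLX-9703, 14 did, and 13 of them were *Cck*-rich. The labels do not say what the number stands for. When the numbers were read in runs of 8, the cells above the gap sat at places 3, 4, 6 and 7 in pool SLX-11175 and at places 2, 5 and 8 in pool SLX-11179. Among cells 1 to 80, *Igkc* came to 83.2 to 314 CPM at the first set of places and to 29.7 to 39.9 CPM at the other 4 places of that pool. In pool SLX-11179 it came to 71.4 to 142 CPM at the places with a cell above the gap and to 7.26 to 33.1 CPM at the other 5.

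*Igha* and *Jchain* followed the same places. *Igha* had 105 to 152 CPM against 33.01 to 82.4 CPM in pool SLX-11175 and 65.6 to 126 CPM against 22.8 to 46.4 CPM in pool SLX-11179, so that the ranges of places do not overlap in either pool. *Jchain* had 17.4 CPM (11.5 to 25.4) against 3.89 CPM (1.68 to 7.67) over all such places of pool SLX-11175, and 11.1 CPM (7.35 to 15.99) against 2.08 CPM (0.899 to 4.10) in pool SLX-11179. In *Cck*-rich cells alone *Igkc* stood at 213 CPM (187 to 241) against 31.3 CPM (22.9 to 41.9) and at 99.3 CPM (84.5 to 116) against 16.9 CPM (12.5 to 22.2). *Ighm* did not follow the places there, at 15.5 against 17.4 CPM and 14.4 against 16.5 CPM, with overlapping intervals.

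The segments followed the places as well. In pool SLX-11175 *Igkv4-91* had 19 reads in the 8 cells at the place of cell 84 and 17 in the 53 others numbered 1 to 80. In pool SLX-11179 *Igkv12-44* had 13 reads in 10 cells at the place of cell 96 and 1 in 66 others, and *Ighv1-76* had 10 in 10 cells at the place of cell 82 and 1 in 66 others. Of the 12 leading segments 11 had more reads per cell at the place of their own cell than at the others, and *Ighv1-26* had none at either. The split by 8 was chosen after these values were seen and has no test. What joins the numbering to the immunoglobulin reads was not tested.

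**Figure D5:**
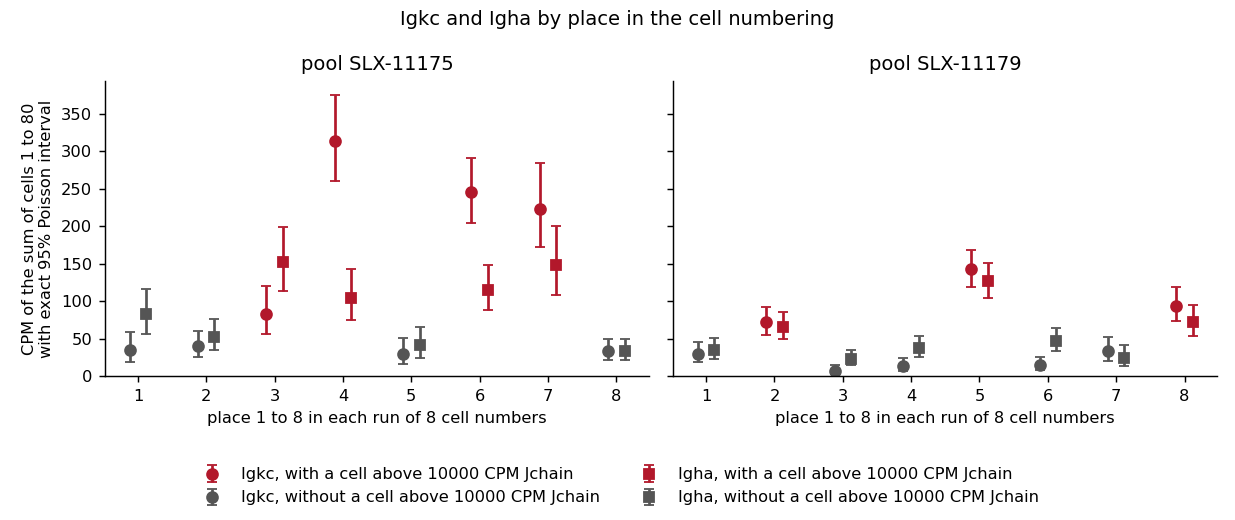
*Igkc* (circles) and *Igha* (squares) in the sum of cells numbered 1 to 80, by place in each run of 8 numbers, as CPM with exact 95% Poisson intervals. Places that hold a cell above 10000 CPM *Jchain* among numbers 81 to 96 are red, and their *Igkc* is 71.4 CPM or more against 39.9 CPM or less at the grey places.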

How the data were processed

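Single cells of mouse upper small intestine were profiled by Smart-seq2. Per the submitters' processing notes the authors aligned reads with GSNAP to mm10 and counted them with HTSeq 0.5.3p3, and the deposited table holds raw counts of reads per gene and cell, not normalized. Its 5 lines without a gene (77.6% of counts) and 92 spike-ins stayed out of library sizes, and 4 columns that match no sample were not used. Symbols and coordinates come from GENCODE M21 (45143 of 46078 identifiers matched).

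CPM were computed over mouse gene reads. Sums of counts over the cells of each class in a pool, from 3 cells upwards, were tested with edgeR 4.0.16 (R 4.3.3, TMM, filterByExpr, quasi-likelihood, false discovery rate 0.05, pool as block). The block was kept because classes of a pool are taken to share an animal. In the *Cck* comparison, sums of the same pool had correlations of 0.166 to 0.454 (3 pairs) after removal of class means. Sums of different pools had -0.314 to 0.135. Removing class means ties both sets of values to each other, so that they are no independent contrast. No such values were computed for the *Jchain*-high comparison. Nothing in the labels says that pools are separate animals, so p-values may measure technical spread. The SE given with a log2 change is its size divided by the square root of the quasi-likelihood F, not a separate estimate. Shares have exact (Clopper-Pearson) and levels exact Poisson intervals at 95%, and the floor for 0 counts is 3 reads. Single cells were sorted into wells, and no doublet caller was run.

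Alternatives were another normalization (RLE, DESeq2 1.42.0), filters, limits, thinning and leaving out pools. The members, lists and tests were chosen with earlier results of these data known. Named genes are the members, up to 4 of each list by level, the 10 most like *Jchain* and, outside the lists, the 5 largest changes in each direction.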

Additional observations from a re-analysis of the deposited data

Results flagged for a closer look

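Cells that did not pass the filters on depth and mitochondrial reads were in no comparison, and some of them held *Jchain* reads. In pool SLX-11175 the highest such cell had 8 *Jchain* reads, and 2 of the 21 cells left out had at least 3 reads, both of them at 100 CPM or more. In pool SLX-11179 the highest had 11 reads, and 3 of 9 cells had at least 3. None of the 8 cells left out of pool SLX-9703 had a *Jchain* read.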

How the results depend on the processing

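For the *Jchain*-high comparison (295 genes called), leaving out the replicate block gave 0, thinning each cell to 20000 reads 69, admitting sums of 1 cell 9 and a *Jchain* limit of 10 CPM 113. The other settings gave 261 to 434, and a limit of 10000 CPM, added after seeing the data, gave 434. Leaving out 1 pool leaves no residual degrees of freedom there, so the values without pool SLX-11175 or SLX-11179 have no test. *Ighm* changed sign with a mitochondrial limit of 10% (-0.26), with *Jchain* limits of 1000 CPM (-0.53) and 10000 CPM (-0.48) and without pool SLX-11175 (-0.17, against 0.94 without pool SLX-11179). For the *Cck* comparison (174 called), no filter on low counts gave 1108 calls, DESeq2 1000, thinning 337, a minimum depth of 50000 reads 106, a mitochondrial limit of 10% 49 and a *Cck* limit of 1000 CPM 98. Leaving out a pool gave 113 to 160, the lowest without SLX-11175. The median log2 change of all genes was -1.09 and 0.03 in the 2 comparisons, -1.08 and -0.01 with RLE factors in edgeR, and 0.03 and -0.39 with DESeq2, which also took in the genes with low counts and another test. Without the *Jchain*-high cells 6 genes were called, and with cells 1 to 80 alone, also chosen after seeing the data, 4, where *Igha* turned to 0.40. Without the replicate block 148 genes were called and *Jchain* had adjusted p = 0.144 by edgeR. The cause of these shifts was not tested, apart from the fewer cells or genes that a setting leaves. Of the levels in *Cck*-rich cells, 104 alternative values stayed within the counting interval and 12 did not, among them *Cd74* and *Igha* in pool SLX-9703 without 1 cell. In the shallow pools 1 read in a cell of median depth is worth more than the *Jchain* level of the *Cck*-rich sum, so single cells with 1 or 2 reads show no order. Spearman's rho named 6 of the same 10 genes as most like *Jchain*. A minimum of 100 segment reads kept 7 of 19 cells.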
